A study of Homo sapiens with 12 samples.

Results

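The integrins described here are 10 genes of the integrin family, chosen by name for their roles in leukocyte adhesion and in binding the extracellular matrix, out of 58735 genes in the deposited table. They are ITGAM, ITGAX, ITGAL and ITGB2, which encode the leukocyte (β2) integrins, and ITGA4, ITGA5, ITGAV, ITGB1, ITGB3 and ITGB7, whose products bind fibronectin, vitronectin and vascular adhesion molecules. RNA was sequenced from tumor-associated macrophages (TAMs) made from THP-1, a human monocytic leukemia line, by treatment with PMA. The TAMs were cocultured with pancreatic cancer cells, given in the study as the AsPC-1 line, across a porous membrane in 4 groups of 3 libraries. Control TAMs were grown with cancer cells carrying an empty vector, and the OE-MMP28 group with cancer cells overexpressing MMP28, a secreted matrix metalloproteinase. The other 2 groups had the same overexpressing cells plus a neutralizing antibody, anti-IL-8 or anti-VEGFA. No library had an isotype control antibody or an antibody without MMP28 overexpression. Every library came from a single cell line, nothing in the labels assigns the 3 libraries of a group to separate cultures, and p-values therefore measure the spread between these libraries only. MMP28 was overexpressed in the cancer cells and not in the sequenced cells, so its level in the TAMs is no check of the labels.

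Integrins are receptors made of 1 α and 1 β subunit that join the cytoskeleton to ligands outside the cell. ITGB2 (CD18) pairs with ITGAM (CD11b), ITGAX (CD11c) and ITGAL (CD11a) on leukocytes, where the pairs bind complement fragments, fibrinogen and ICAM proteins during adhesion, phagocytosis and passage through vessel walls. ITGB1 pairs with many α subunits, among them ITGA5 in the classical fibronectin receptor and ITGA4 in the receptor for VCAM1, ITGAV pairs with ITGB3 and other β subunits to bind RGD-containing matrix proteins, and ITGB7 pairs with ITGA4 to bind MADCAM1. The study used CD11b, the product of ITGAM, to sort TAMs after coculture, and whether the sequenced cells had passed that gate is not given in the sources used here.

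Libraries held 15852346 to 18701195 counts, at which 3 counts equal 0.160 to 0.189 CPM (counts per 1000000 counts of the library). Mitochondrial genes took 6.92% to 17.8% of the counts. The highest share was in anti-VEGFA replicate 2, which also stood farthest from the libraries of its own group, with a chi-square per degree of freedom of 94.4 and 52.2 against its fellows and 23.2 between those. Among 13 macrophage markers 11 passed the filter on low counts, CD68 had 0 to 5 counts per library and MRC1 0 to 4. Of the epithelial markers 3 of 11 passed, their 11 genes summed to 3.10 to 6.84 CPM and EPCAM was at 0 in all libraries. The T cell markers CD3D and CD3E were at 0 throughout.

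All 10 integrin genes passed the filter and were tested. Their gene bodies, with coordinates identical to GENCODE 29 on GRCh38, include a group on chromosome 16, with ITGAM at chr16:31259967-31332892, ITGAX at chr16:31355134-31382997 and ITGAL at chr16:30472658-30523185, all on the forward strand. ITGB2 lies at chr21:44885953-44931989 and ITGB1 at chr10:32900319-33005792, both on the reverse strand. ITGA5 (chr12:54395261-54419460) and ITGB7 (chr12:53191318-53207307) are on the reverse strand of chromosome 12, ITGA4 (chr2:181457202-181536187) and ITGAV (chr2:186590065-186680901) on the forward strand of chromosome 2, and ITGB3 at chr17:47253846-47311816 on the forward strand. ITGB2 overlaps ITGB2-AS1 on the other strand, which had 435 to 773 counts against 59677 to 111817 for ITGB2. ITGB7 overlaps ZNF740 on the other strand, with 550 to 948 counts against 823 to 3289. Strand-specific counting is not stated, and reads in such overlaps cannot be told apart.

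RefSeq promoter sequence on GRCh38.p14, from 250 bases before to 50 bases after a transcription start, was at hand for 6 of the 10 genes in 8 entries. Shown are ITGAM, the β2 α chain used as the TAM gate, and ITGA5 and ITGB1, which together make the fibronectin receptor and whose ratio is given below. The ITGAM window is chr16:31259725-31260024 on the forward strand, that of ITGB1 is chr10:32958181-32958480 on the reverse strand, at the upstream of its RefSeq starts, and that of ITGA5 is chr12:54419217-54419516 on the reverse strand. Capitals mark matches on either strand to GAGGAA (a PU.1-type ETS core), TGACTCA (an AP-1 site) or GGGCGG (an SP1 GC box).
ITGAM: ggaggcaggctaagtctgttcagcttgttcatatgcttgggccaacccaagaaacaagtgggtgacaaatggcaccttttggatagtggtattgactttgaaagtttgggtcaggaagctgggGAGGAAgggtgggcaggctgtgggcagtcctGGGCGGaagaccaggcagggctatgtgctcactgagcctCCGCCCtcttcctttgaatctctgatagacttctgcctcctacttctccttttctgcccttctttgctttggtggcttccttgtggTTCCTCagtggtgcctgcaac
ITGB1: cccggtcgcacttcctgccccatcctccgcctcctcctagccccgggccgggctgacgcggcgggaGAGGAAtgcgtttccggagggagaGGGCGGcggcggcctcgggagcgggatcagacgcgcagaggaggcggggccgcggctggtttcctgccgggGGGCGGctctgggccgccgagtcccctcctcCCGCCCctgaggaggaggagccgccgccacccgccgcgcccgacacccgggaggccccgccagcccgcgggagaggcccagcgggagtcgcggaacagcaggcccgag
ITGA5: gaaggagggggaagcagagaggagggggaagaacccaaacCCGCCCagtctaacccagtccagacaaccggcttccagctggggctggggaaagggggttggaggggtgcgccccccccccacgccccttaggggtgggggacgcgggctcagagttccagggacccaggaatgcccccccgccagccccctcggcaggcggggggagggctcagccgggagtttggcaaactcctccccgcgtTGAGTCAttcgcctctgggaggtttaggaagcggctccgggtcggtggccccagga
The ITGAM window held 2 GAGGAA and 2 GGGCGG matches, that of ITGB1 held 1 GAGGAA and 3 GGGCGG matches, and that of ITGA5 held 1 TGACTCA match and 1 GGGCGG match. Of 35116 RefSeq promoters of the same length, 27.9% held GAGGAA, 4.95% TGACTCA and 45.0% GGGCGG. A match describes these letters only and no binding was measured.

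Levels were compared between genes on the deposited FPKM scale, which divides by gene length. ITGB2, the shared β chain of the leukocyte integrins, was highest, at 747 ± 172 FPKM (SD, n = 12), and ITGA5, the fibronectin receptor α chain, came next at 182 ± 28.6. ITGAX was at 106 ± 17.7, ITGAM at 92.8 ± 14.0 and ITGB1 at 70.3 ± 14.8 FPKM. These 5 genes formed an upper set that did not overlap the rest, since the lowest ITGB1 library (45.1 FPKM) was above the highest ITGB7 library (44.6). ITGB7 was at 28.2 ± 9.17, ITGAV at 16.7 ± 3.58, ITGAL at 12.5 ± 2.58 and ITGB3 at 7.98 ± 2.14 FPKM. ITGA4, the α chain that ITGB7 and ITGB1 share, was lowest at 1.07 ± 0.305 FPKM. Neighbours in this order did not all separate. ITGAX exceeded ITGAM in 9 of 12 libraries, ITGAM exceeded ITGB1 in 10, ITGB7 exceeded ITGAV in 10 and ITGAV exceeded ITGAL in 10. ITGAL was above ITGB3 within each of the 12 libraries although their ranges over libraries met.

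The same genes were then followed over the libraries as CPM scaled by TMM, edgeR's correction for library composition, which serves for comparing 1 gene between libraries and not for comparing genes. ITGB2 was at 4677.5, 4114.2 and 4048.2 CPM in control libraries 1 to 3, at 4729.7, 3489.6 and 5715.4 in OE-MMP28, at 6864.5, 5515.5 and 7254.4 under anti-IL-8, and at 5796.2, 4173.1 and 5159.1 under anti-VEGFA. The anti-IL-8 libraries lay above all 3 controls, OE-MMP28 was the most scattered group and its replicate 3 reached the anti-IL-8 range. ITGAL, the LFA-1 α chain, was at 68.0, 69.7 and 66.5 CPM in control, 74.9, 69.0 and 88.3 in OE-MMP28, 109, 83.7 and 111 under anti-IL-8, and 99.1, 71.8 and 69.8 under anti-VEGFA. Its controls were the tightest of the groups, all anti-IL-8 libraries stood well above them and the anti-VEGFA libraries started right at their upper end. ITGAX was at 550, 618 and 716 CPM in control, 666, 668 and 822 in OE-MMP28, 840, 855 and 874 under anti-IL-8, and 932, 874 and 637 under anti-VEGFA. Here the anti-IL-8 libraries were close together and above all control and OE-MMP28 libraries, whereas anti-VEGFA replicate 3 fell back among the controls. ITGAM was at 561, 520 and 589 CPM in control, 488, 488 and 510 in OE-MMP28, 614, 482 and 671 under anti-IL-8, and 620, 398 and 461 under anti-VEGFA. All OE-MMP28 libraries were below the controls, by a small margin, and both antibody groups spanned the control range.

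Among the matrix and vascular receptors, ITGB1 was at 517, 455 and 525 CPM in control, 517, 567 and 380 in OE-MMP28, 357, 338 and 364 under anti-IL-8, and 437, 273 and 396 under anti-VEGFA. Every antibody-treated library was below every control, and OE-MMP28 replicate 3 was again the library of its group nearest to the anti-IL-8 values. ITGA5 was at 1482.8, 1319.3 and 1337.2 CPM in control, 1323.4, 1056.1 and 1366.9 in OE-MMP28, 1648.6, 1372.1 and 1728.5 under anti-IL-8, and 1654.9, 1044.3 and 1380.8 under anti-VEGFA. The anti-IL-8 libraries lay just above the OE-MMP28 range and overlapped the controls. ITGAV was at 140, 131 and 145 CPM in control, 154, 164 and 120 in OE-MMP28, 95.2, 120 and 118 under anti-IL-8, and 176, 101 and 195 under anti-VEGFA. Its anti-IL-8 libraries were the lowest as a group, below every control. ITGA4 was at 10.3, 10.5 and 8.35 CPM in control, 9.51, 11.3 and 7.12 in OE-MMP28, 4.63, 6.11 and 8.30 under anti-IL-8, and 11.9, 4.64 and 9.55 under anti-VEGFA. At 72 to 200 counts per library it was the most thinly counted member. ITGB3 was at 44.2, 41.8 and 43.3 CPM in control, 35.2, 36.5 and 26.1 in OE-MMP28, 30.1, 27.5 and 44.9 under anti-IL-8, and 48.1, 16.3 and 31.4 under anti-VEGFA. ITGB7 was at 151, 136 and 138 CPM in control, 117, 93.9 and 109 in OE-MMP28, 131, 111 and 198 under anti-IL-8, and 195, 52.3 and 101 under anti-VEGFA. For both genes the controls were close together, all OE-MMP28 libraries were lower, and anti-VEGFA replicate 2 was the lowest of the 12 libraries.

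**Figure D1:**
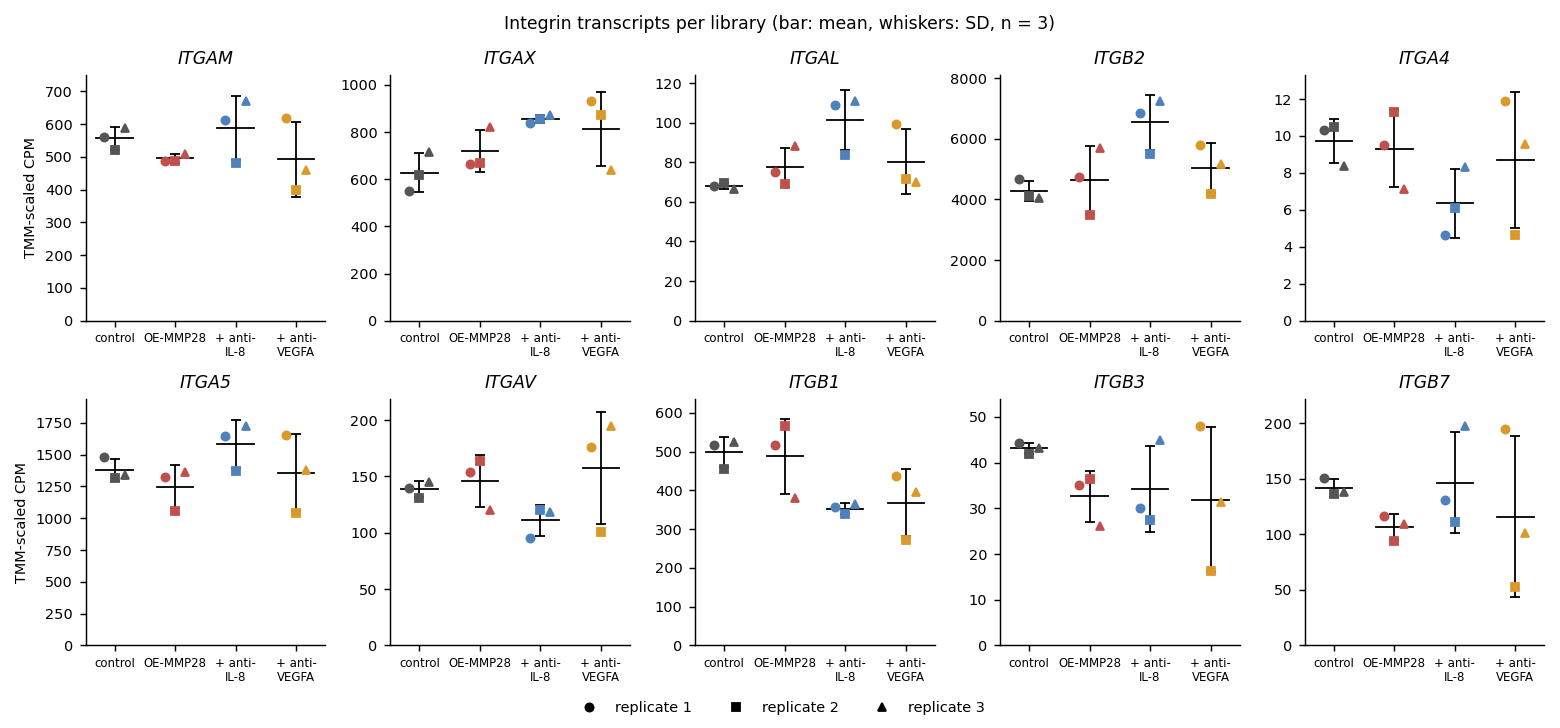
TMM-scaled CPM of each integrin gene by group, 1 panel per gene, with a symbol per replicate, a bar at the mean and whiskers of 1 SD (n = 3). ITGB2, ITGAX and ITGAL sit higher and ITGB1 lower in the 3 anti-IL-8 libraries than in the 3 control libraries.

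The first comparison asked which integrin transcripts differed in TAMs when the cancer cells overexpressed MMP28. None of the 10 passed the edgeR quasi-likelihood test at a Benjamini-Hochberg adjusted p of 0.05, where 3.16% of the 16046 genes tested did. None passed at an unadjusted p of 0.05 either, where 14.5% of all genes did, and DESeq2 and limma voom also called 0 of 10. ITGB7 and ITGB3 had the largest differences, with log2 fold changes of -0.41 (SE 0.30) and -0.40 (SE 0.27), and an interval of 2 SE reached from -1.02 to 0.20 for ITGB7 and from -0.93 to 0.13 for ITGB3. ITGAM, the TAM gate, had a log2 fold change of -0.17 (SE 0.16, interval -0.48 to 0.15). In these 3 genes all OE-MMP28 libraries were below all controls, a pattern that 11.6% of all genes showed in that direction. ITGB2 differed by 0.12 (SE 0.18) and ITGB1 by -0.03 (SE 0.17) on the log2 scale, within the spread between libraries. The median over the 10 genes was -0.05, against 0.023 over all genes tested.

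The second question was whether neutralizing IL-8 altered the integrins under MMP28 overexpression. Relative to OE-MMP28, 0 of the 10 passed the adjusted threshold in edgeR, as did 0.0% of all genes, and limma voom also called 0. At an unadjusted p of 0.05, 3 of 10 passed, beside 29.3% of all genes: ITGB2 with a log2 fold change of 0.49 (SE 0.18), ITGAL with 0.39 (SE 0.15) and ITGB1 with -0.47 (SE 0.17). DESeq2 called ITGB2 and ITGB1 at its adjusted threshold, beside 13.2% of all genes. The share of all genes called in edgeR depended on single libraries, and was 7.08% without anti-VEGFA replicate 2, a library of neither group. The integrin calls changed when OE-MMP28 replicate 3 was left out. Without that library, edgeR called 3 of 10, beside 25.0% of all genes in the same refit, with ITGB2 at 0.69 (adjusted p = 0.013), ITGB1 at -0.60 (adjusted p = 0.012) and ITGAL at 0.51 (adjusted p = 0.025), so for these genes the direction was the same and the call was not. In 4 of 10 genes the 2 groups did not overlap, ITGA5 and ITGAX being higher and ITGB1 and ITGAV lower with anti-IL-8, beside 29.0% of all genes. The median over the members was 0.25, against -0.016 over all genes.

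Anti-IL-8 libraries were also compared with the vector control, a contrast that combines MMP28 overexpression and antibody. It was the only one of the 6 in which integrins passed the adjusted threshold with all libraries in the edgeR fit. Of the leukocyte integrin genes 3 rose, beside 9.77% of all genes tested, and ITGB1 fell, beside 10.9%, which makes 4 of 10 beside 20.7%. ITGAL rose by 0.58 (SE 0.15, adjusted p = 0.015), from 68.1 ± 1.58 to 101 ± 15.4 CPM (SD, n = 3). ITGB2 rose by 0.61 (SE 0.18, adjusted p = 0.026), which is 1.53-fold, and ITGAX by 0.45 (SE 0.15, adjusted p = 0.046), which is 1.36-fold. ITGB1 had a log2 fold change of -0.50 (SE 0.17, adjusted p = 0.044), from 499 ± 38.3 to 353 ± 13.5 CPM. The third β2 α chain, ITGAM, did not pass and differed by 0.08 (SE 0.16, interval -0.24 to 0.40). ITGA4, at -0.61 (SE 0.28), passed only at the unadjusted threshold, where 5 of 10 did beside 35.9% of all genes. Counting groups that did not overlap gave 6 of 10, ITGB2, ITGAX and ITGAL higher and ITGB1, ITGAV and ITGA4 lower, beside 47.8% of all genes.

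Of the 4 calls, ITGAX and ITGB1 were the closest to the threshold. Under 10 other settings, described below, ITGAL was kept in 10, ITGB2 in 8, ITGB1 in 8 and ITGAX in 6. Leaving out any 1 of the 12 libraries, refitting and adjusting anew kept ITGAL in 8 cases, ITGB2 in 8, ITGAX in 5 and ITGB1 in 4, with log2 fold changes of 0.51 to 0.70, 0.55 to 0.73, 0.36 to 0.55 and -0.56 to -0.46. No integrin passed when control replicate 2 or 3 was left out, beside 8.13% and 8.48% of all genes. None passed without library 1 or 3 of the anti-IL-8 group, beside 7.94% and 8.23%. The count was 2 without control replicate 1 (11.1% of all genes), OE-MMP28 replicate 1 (17.1%) or library 2 of the anti-IL-8 group (17.6%). With all libraries 20.7% of all genes had passed, so the share over all genes fell in these refits as well. Part of the macrophage markers moved with these genes. The 13 markers summed to 1562.7 to 1781.0 CPM in control and 2487.1 to 3076.6 CPM with anti-IL-8, a sum in which CD14 took the largest part (752 and 1578.7 CPM on average). Of the 11 tested, 4 rose and 7 did not pass, the former including CD14 (log2 1.07, SE 0.20, adjusted p = 0.0017) and SPI1, which encodes PU.1 (log2 0.68, SE 0.22, adjusted p = 0.036). Among those that did not pass, LYZ was at -0.29, AIF1 at -0.23, CD163 at -0.15 and CD86 at -0.69. The part of the markers in the integrin result was not tested. In bulk RNA, more cells expressing a gene and more RNA per cell cannot be told apart.

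**Figure D2:**
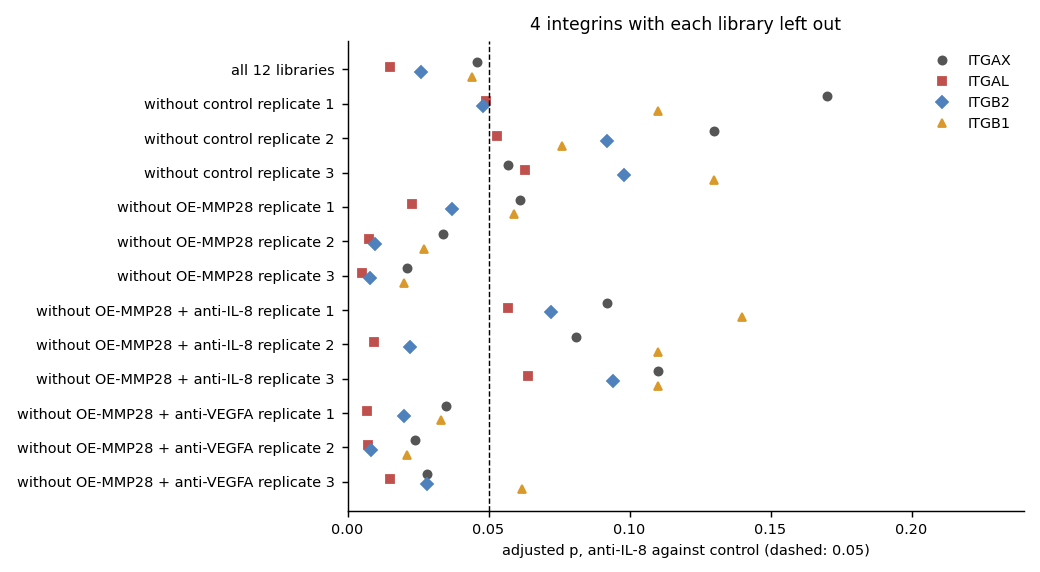
Adjusted p (horizontal axis, dashed line at 0.05) of ITGAL, ITGB2, ITGAX and ITGB1 for anti-IL-8 against control, with all 12 libraries in the top row and with 1 library left out in each further row. All points shift to the right of the line without anti-IL-8 replicate 1 or 3 or control replicate 2 or 3.

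Anti-VEGFA was compared with OE-MMP28, with control and with anti-IL-8. Relative to OE-MMP28, 0 of 10 integrins passed the adjusted threshold in edgeR, DESeq2 or limma voom, beside 0.343% of all genes, and ITGB1 alone passed at the unadjusted one (log2 -0.40, SE 0.17), beside 18.8%. Without OE-MMP28 replicate 3, ITGB1 was called at -0.56 (adjusted p = 0.038), 1 of 10 beside 8.48% of all genes in that refit. Relative to control, 0 of 10 passed in edgeR, DESeq2 or limma voom, beside 11.0% of all genes, and 2 passed unadjusted, beside 27.0%: ITGAX at 0.37 (SE 0.15) and ITGB1 at -0.44 (SE 0.17). The ITGB1 difference from control passed the adjusted threshold only for anti-IL-8, and the difference between the antibodies is given below. Without anti-VEGFA replicate 1, 3 of 10 were called against control, ITGB1, ITGB3 and ITGB7, beside 10.2% of all genes in that refit. The 2 libraries left in that group then included replicate 2, the lowest of the 12 for each of these genes.

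Between the antibodies themselves, 0 of 10 integrins passed in edgeR, DESeq2 or limma voom, beside 0.199% of all genes. ITGAV, which was 157 ± 49.8 CPM with anti-VEGFA and 111 ± 13.7 with anti-IL-8 (SD, n = 3), had a log2 fold change of 0.50 (SE 0.19) and ITGAL one of -0.34 (SE 0.15), the 2 genes of 10 that passed unadjusted, beside 15.0% of all genes. Without anti-VEGFA replicate 2, the library with the highest mitochondrial share, ITGAV was called at 0.72 (adjusted p = 0.044), 1 of 10 beside 0.310% of all genes in that refit. The difference of ITGB1 between the antibodies was 0.06 (SE 0.17, interval -0.27 to 0.40). These comparisons share libraries with those above and are not independent of them.

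**Figure D3:**
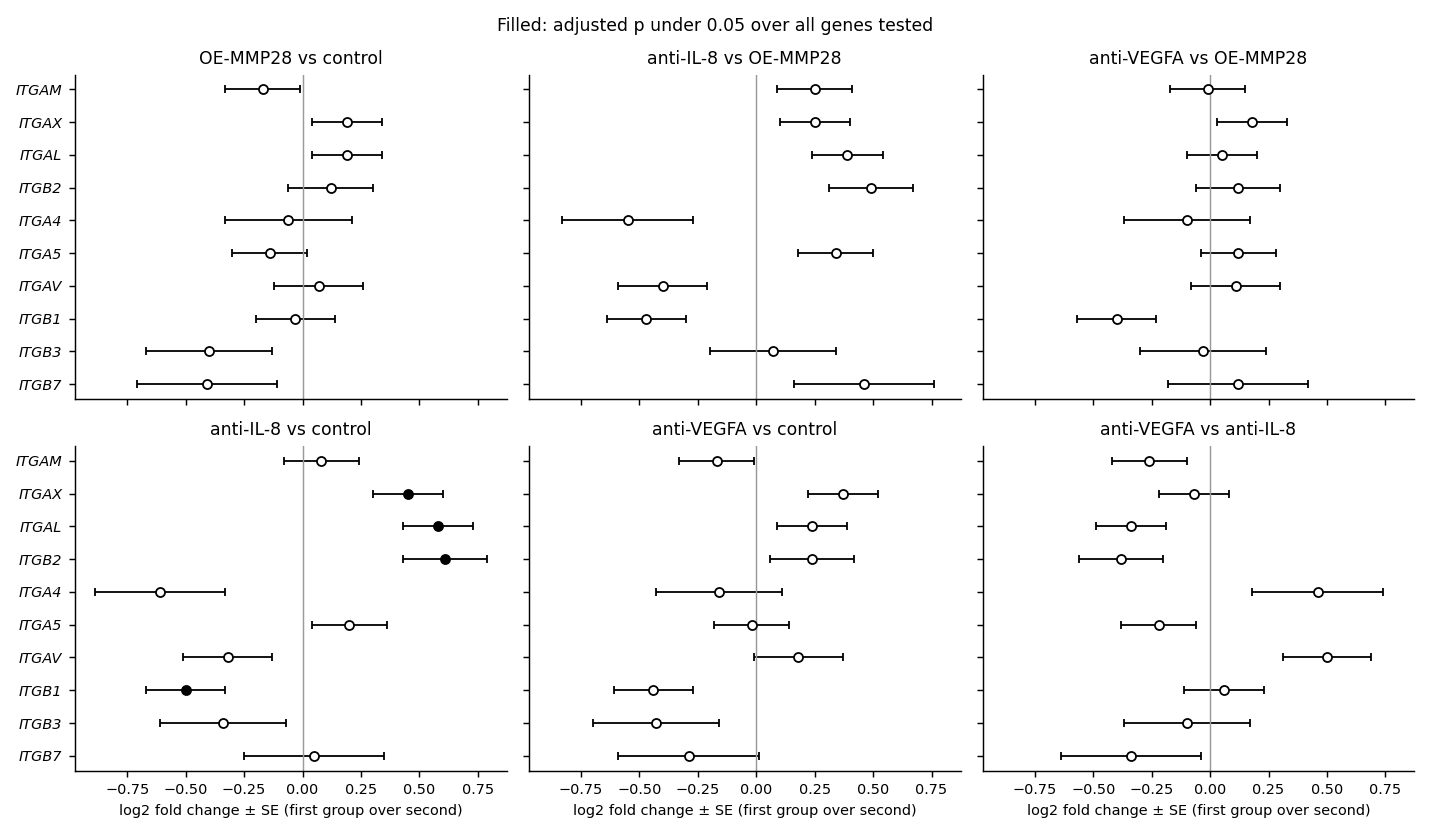
Log2 fold changes of the 10 integrin genes in the 6 comparisons, with bars of ± SE. Filled points passed an adjusted p of 0.05. Filled points appear only for anti-IL-8 against control, at ITGAL, ITGB2, ITGAX and ITGB1.

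Because members of a family are measured in the same library, their ratio does not depend on library scaling. The following ratios of FPKM were chosen after the values had been seen. The log2 ratio of ITGAX to ITGAM was -0.34, -0.07 and -0.03 in the control libraries, 0.13, 0.14 and 0.37 in OE-MMP28, 0.14, 0.51 and 0.07 under anti-IL-8, and 0.27, 0.82 and 0.15 under anti-VEGFA. On the FPKM scale ITGAM was the higher of the 2 in all 3 controls and ITGAX in all 9 libraries with MMP28-overexpressing cells. Which gene is higher depends on the gene lengths used, 5688 bases for ITGAM and 7074 for ITGAX. In counts, ITGAX exceeded ITGAM in control replicates 2 (10692 against 9001) and 3 (12090 against 9952). The difference of the log2 ratio from control was 0.36 for OE-MMP28, 0.39 for anti-IL-8 and 0.56 for anti-VEGFA. Each had a 2-sided exact permutation p of 0.10, the smallest that 3 against 3 libraries can give. After adjustment over the 48 ratio tests made, each p was 0.24. ITGAM made up 49.7% ± 2.63 of the summed FPKM of the 3 β2 α chains in control, 43.5% ± 2.33 in OE-MMP28, 42.9% ± 3.63 under anti-IL-8 and 40.5% ± 5.51 under anti-VEGFA (SD, n = 3).

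The log2 ratio of ITGB2 to ITGB1, the main leukocyte β chain over the main matrix β chain, was 3.00, 3.00 and 2.77 in control, 3.02, 2.44 and 3.73 in OE-MMP28, 4.09, 3.85 and 4.14 under anti-IL-8, and 3.55, 3.76 and 3.53 under anti-VEGFA. The anti-IL-8 libraries were above all 9 others, and the anti-VEGFA libraries were above the controls and below anti-IL-8. The mean with anti-IL-8 exceeded that of control by 1.10 and that of OE-MMP28 by 0.96. The mean with anti-VEGFA exceeded control by 0.69, and its difference from anti-IL-8 was -0.41. Each of these 4 had an exact permutation p of 0.10 (adjusted 0.24), and the difference of 0.55 between anti-VEGFA and OE-MMP28 had 0.30. ITGA5 to ITGB1, the 2 chains of the fibronectin receptor, had a log2 ratio of 1.13 ± 0.104 in control, 1.03 ± 0.476 in OE-MMP28, 1.82 ± 0.121 under anti-IL-8 and 1.55 ± 0.0739 under anti-VEGFA (SD, n = 3), and neither antibody group overlapped control.

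The remaining integrin subunits were a list of 16 genes, of which 12 were tested. MMP28 overexpression was accompanied by a lower level of 1 of these 12, ITGA3, a laminin-binding α chain (log2 -0.59 relative to control, SE 0.15, adjusted p = 0.037), beside 3.16% of all genes called. For anti-IL-8 against control 3 fell and 1 rose of 12, beside 10.9% and 9.77% of all genes tested, among them the collagen-binding chains ITGA2 (-1.74, SE 0.28, adjusted p = 0.00046) and ITGA1 (-0.58, SE 0.17, adjusted p = 0.024) and the ITGAV partner ITGB5 (0.47, SE 0.14, adjusted p = 0.025). ITGA2 and ITGA1 both pair with ITGB1, which fell in the same comparison. The ITGB1 partners ITGA5 (0.20, SE 0.16) and ITGA4 (-0.61, SE 0.28) did not pass there. Nor did the α chains ITGA3 (-0.09, SE 0.15), ITGA6 (-0.15, SE 0.21) and ITGA7 (-0.12, SE 0.16). ITGA2 had 16 to 106 counts per library, so its level was low. It was also the only 1 of 12 called between the antibodies, beside 0.199% of all genes, higher with anti-VEGFA than with anti-IL-8 by 1.59 (SE 0.28, adjusted p = 0.021). In edgeR 0 of 12 passed with anti-IL-8 relative to OE-MMP28 (6 unadjusted, beside 29.3% of all genes, 2 by DESeq2, 0 by limma voom). With anti-VEGFA 0 passed relative to OE-MMP28 (2 unadjusted, beside 18.8% of all genes, 0 by either other tool) and 0 relative to control (3 unadjusted, beside 27.0%, 0 by either other tool).

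Proteins at the cytoplasmic tails decide whether an integrin is active, with talins and kindlins (FERMT genes) binding the β chain and kinases passing on the signal. Of 33 such genes tested, 6 rose and 3 fell with anti-IL-8 against control, beside 9.77% and 10.9% of all genes. FERMT2, the kindlin of adherent tissue cells, fell (log2 -0.64, SE 0.14, adjusted p = 0.0055), while APBB1IP, which links RAP1 to talin, rose (0.48, SE 0.12, adjusted p = 0.012). In the anti-VEGFA group 1 of 33 rose and 1 fell relative to control, beside 11.0% of all genes called. The 1 that fell was FERMT2 again (-0.45, SE 0.14, adjusted p = 0.044). TLN2, a talin, fell under MMP28 overexpression (-0.71 relative to control, SE 0.17, adjusted p = 0.028), the only 1 of 33 called, beside 3.16% of all genes. BCAR1, an adaptor of focal adhesions, was the 1 gene of 33 that rose with anti-VEGFA against OE-MMP28 (0.69, SE 0.14, adjusted p = 0.044), beside 0.343% of all genes called. With anti-IL-8 against OE-MMP28, 0 of 33 passed in edgeR, where 12 passed unadjusted (29.3% of all genes did), 8 by DESeq2 (13.2% of all genes) and 0 by limma voom.

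Among membrane proteins that associate with integrins, 13 were tested. CD14, the lipopolysaccharide co-receptor that can act together with CD11b/CD18, rose under MMP28 overexpression (log2 0.80 relative to control, SE 0.19, adjusted p = 0.027). It was 1 of 2 of the 13 that rose there, beside 3.16% of all genes called in either direction. Relative to control it also rose in the anti-VEGFA group (0.88, SE 0.19, adjusted p = 0.0079), the only 1 of 13 called there beside 11.0% of all genes, as in the anti-IL-8 group above. With anti-IL-8 against control 4 rose and 1 fell of 13, beside 9.77% and 10.9% of all genes, including the tetraspanin CD81 (0.77, SE 0.17, adjusted p = 0.0059) and CAV1, the caveolae protein, which fell (-0.81, SE 0.18, adjusted p = 0.0069).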

How the data were processed

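RNA from 12 libraries was sequenced after NEBNext Ultra RNA library preparation. Per the labels, HISAT2 2.0.5 and featureCounts 1.5.0-p3 were among the tools the submitters used. Genome build and annotation are not given in the sources used here. The deposited counts are whole reads per gene made by the authors, and the deposited FPKM values are those counts scaled by the authors per gene length and library. Columns of the authors' own comparisons (group means, fold changes, p-values) were not used.

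Counts were tested with edgeR 4.0.16 in R 4.3.3. Genes were kept by filterByExpr (16046), libraries scaled by TMM, and a quasi-likelihood model with 1 coefficient per group fitted to all 12 libraries, with Benjamini-Hochberg adjustment over all genes within a comparison. Fold changes use a prior count of 0.125. The model was tested on simulated data first. The study's methods give a p of 0.05 with limma as its threshold. For its sequencing of the cancer cells it also required an absolute logFC above 1, and for the TAMs it states no fold cutoff. Alternatives were DESeq2 1.42.0, limma 3.58.1 (voom, and log2 FPKM plus 1 or 0.1), 2 other scalings, 2 other filters, fits of 2 groups, the replicate block and each library left out. With 1 library left out of a group, the spread comes from all groups together. Ratios of FPKM were compared by exact permutation tests, 2-sided.

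The 10 integrins and all lists were chosen with earlier results of these data known. Named list genes were at most 3 per list and comparison, those with the smallest p past the adjusted threshold. A single gene that this rule names is not reported here. Genes most like a member were sought for ITGAM, ITGB2 and the member with the largest absolute fold change. Macrophage markers were named after their values were seen.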

Additional observations from a re-analysis of the deposited data

How the results depend on the processing

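The count of integrins past an adjusted p of 0.05 depended on single libraries in 5 of the 6 comparisons. For OE-MMP28 against control it was 0 under every alternative run, beside 1.79% to 4.14% of all genes. For anti-IL-8 against OE-MMP28 it was 0, beside 0.0% of all genes. The count became 2 with DESeq2 (13.2% of all genes) and 2 without a filter on low counts (4.18%). With 1 library left out it ranged from 0 to 3 (0.0% to 25.0%). For anti-VEGFA against OE-MMP28 it was 0 (0.343% of all genes), and 0 to 1 with 1 library left out (0.0486% to 8.48%). For anti-IL-8 against control it was 4, beside 20.7% of all genes. The count rose to 6 with only the 2 groups in the fit (37.8% of all genes) and 5 without a filter (9.71%). It was 3 with library totals (18.3%). With limma it became 1 on log2(FPKM plus 1) (17.2%) and 1 on log2(FPKM plus 0.1) (17.1%). With 1 library left out it ranged from 0 to 4 (7.94% to 26.2%). For anti-VEGFA against control it was 0 (11.0% of all genes) and became 1 without a filter (6.13%). With 1 library left out it ranged from 0 to 3 (4.02% to 15.7%). For anti-VEGFA against anti-IL-8 it was 0 (0.199% of all genes), and 0 to 1 with 1 library left out (0.0181% to 0.68%). The cause of these shifts was not tested. Over all genes the calls ranged from 295 to 707 (507 as reported), 0 to 4125 (0), 1 to 1402 (55), 1312 to 6058 (3317), 662 to 2582 (1760) and 3 to 277 (32) in the same order of comparisons, so the percentages beside the integrin counts move with the setting too. Over 60 fold changes, no called value changed sign under 10 alternatives or 12 left-out libraries, and 22 uncalled ones did, with at most 0.29 in size.

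The replicate number of the labels as a block gave 3 integrins in anti-IL-8 against control, beside 21.5% of all genes, with ITGAX lost (adjusted p = 0.056). Same-numbered libraries of different groups did not deviate together (18 pairs, r from -0.16 to 0.237), and a library correlated best with its own number in 13 of 36 cases, so the numbers were not taken as pairs. The effect of depth on the calls was not tested. The members with the fewest counts were ITGA4, at 72 to 200 per library, and ITGB3, at 256 to 810.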

Other observations

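Ligands of the integrins that TAMs can make themselves were a further list, with 21 of 28 genes tested. Under MMP28 overexpression 2 of 21 fell relative to control, beside 3.16% of all genes called in either direction. They were CYR61, a matricellular ligand of αM and αv integrins (log2 -0.94, SE 0.16, adjusted p = 0.0013), and VCAM1, the ligand of the ITGA4 and ITGB1 pair (-1.26, SE 0.26, adjusted p = 0.0079, 24 to 148 counts per library). Both also fell relative to control in the anti-IL-8 group (-1.07 and -1.17) and in the anti-VEGFA group (-0.79 and -1.55), comparisons that use the same control libraries. FN1, the fibronectin gene, was at 1245.8 CPM in control on average, 841 in OE-MMP28, 794 in the anti-IL-8 group and 786 in the anti-VEGFA group, and passed the adjusted threshold against control for both antibody groups (-0.65, SE 0.18, adjusted p = 0.019, and -0.66, SE 0.18, adjusted p = 0.025). THBS1, the thrombospondin gene, fell with anti-IL-8 against control (-1.50, SE 0.30, adjusted p = 0.0035) at 14 to 59 counts per library. In all, 0 rose and 5 fell of 21 with anti-IL-8 against control, where 20.7% of all genes were called, and 1 rose and 3 fell with anti-VEGFA against control, where 11.0% were. None of the 21 passed in edgeR between OE-MMP28 and either antibody group, where 5 passed unadjusted in each (beside 29.3% of all genes for anti-IL-8 and 18.8% for anti-VEGFA) and DESeq2 called 1 and limma voom 0 in each.

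The genes most like 3 of the integrins over the 12 libraries were found among 13073 protein-coding genes by the root mean square difference of log2 CPM, each gene centred on its mean. For ITGAM they were KIAA0319L (0.068), GLG1 (0.082) and TPCN1 (0.085), against a median of 0.33 over all genes, and the nearest integrin was ITGA5 at rank 45 (0.12), while its partner ITGB2 stood at rank 2929 (0.26). For ITGB2 they were MAN2B1 (0.065), TRPV2 (0.065) and MAN1B1 (0.068), against a median of 0.40, with ITGAL at rank 122 (0.13) and ITGB1 at rank 10546 (0.52). For ITGA4 they were ASAP2 (0.11), PRKAB2 (0.14) and IL1RAP (0.16), against a median of 0.48, with ITGAV at rank 77 (0.23) and ITGB1 at rank 201 (0.26). These values describe 12 libraries that share a cell line, with depths of 15852346 to 18701195 counts.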
